A study of Mus musculus with 11 samples.

Results

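The imprinted Dlk1-Dio3 locus of mouse chromosome 12 carries a large group of miRNAs, and 44 of the 334 mouse miRNAs on the array belonged to it. Members were chosen by miRNA number from the array's annotation, with any letter, arm or star suffix, and no measured value entered the choice. Of the 44 numbers in the rule 42 had a spot, while miR-453 and miR-493 had none, and some numbers gave more than 1 member. Each member had 4 spots, 176 of the 1336 mouse spots in all. The 11 arrays held total RNA of female mice: normal mammary tissue of late-pregnant FVB (n = 2), Balb/C (n = 3) and FVB129B6 (n = 3) mice, and primary mammary tumors of C3(1)/Tag transgenic mice on the FVB background (n = 3). In that model the 5′ flanking region of a rat prostate gene drives the simian virus 40 T antigens, and the ductal epithelium of the mammary gland is among the tissues that express them. The age of the mice is not given in the sources used here, and the titles of Balb/C replicates 2 and 3 could name 2 glands of 1 mouse. Where nothing says that samples came from separate animals, p-values measure only the spread between these samples.

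At this locus Dlk1, Rtl1 and Dio3 are expressed from the paternal chromosome, and the noncoding RNAs Meg3, Rian and Mirg and the miRNAs from the maternal one. The miRNAs are thought to be cut from long maternal transcripts that cross the locus, so that many can be made together. They are known for expression in the embryo, placenta and brain, and for low expression in many adult tissues. A miRNA pairs with its targets mainly through its seed, bases 2 to 8 from the 5′ end, and lowers their translation or stability.

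The mature sequences of the members on which the results turn are given 5′ to 3′ with the seed in capitals. RefSeq's table for GRCm38.p6 held a mature miRNA complementary to the start of the probe for 41 of the 44 members, over its whole length for 30 of them. The matches gave the arm, which the array's names often leave out. All 41 lay on the plus strand of chromosome 12, over 180.0 kb. Of these, 1 lay within the annotated Meg3, 9 within the span of Rtl1, which is read from the opposite strand, 2 within Rian and 8 within Mirg, and most members from miR-379 onwards lay before the annotated start of Mirg. No seed was shared between any of the 41.
miR-337-3p (chr12:109585850-109585871): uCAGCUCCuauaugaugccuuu
miR-431-5p (chr12:109590459-109590479): uGUCUUGCaggccgucaugca
miR-127-3p (chr12:109592888-109592909): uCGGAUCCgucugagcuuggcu
miR-379-5p (chr12:109709065-109709085): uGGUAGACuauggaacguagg
miR-299a-5p (chr12:109710644-109710665): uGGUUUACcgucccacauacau
miR-494-3p (chr12:109715367-109715388): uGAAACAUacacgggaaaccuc
miR-543-3p (chr12:109717304-109717325): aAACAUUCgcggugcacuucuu
miR-667-3p (chr12:109720061-109720083): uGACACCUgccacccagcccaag
miR-300-3p (chr12:109724363-109724384): uAUGCAAGggcaagcucucuuc
miR-381-3p (chr12:109726870-109726891): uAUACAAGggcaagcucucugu
miR-539-5p (chr12:109728136-109728157): gGAGAAAUuauccuuggugugu
miR-382-5p (chr12:109733781-109733802): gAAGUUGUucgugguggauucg
miR-377-3p (chr12:109740553-109740574): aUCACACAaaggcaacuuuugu
miR-300 and miR-381 are shown because their probes were the most alike of the members' probes, with 3 base edits between them, so that their signals may not be separate. The next closest pair, miR-495 and miR-543, differed by 6 edits. The spots labelled miR-411 matched miR-411-3p, over 17 of its bases.

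Values are levels, the log2 green signal of a miRNA's spots minus the median log2 signal of the array, so that 0 is the array's median. The scanner software calls each spot as well above its background or not, and a miRNA had to have 50% or more of its spots so called. Over all 334 miRNAs this held for 209 to 262 on the gland arrays but for 15, 38 and 64 on the tumor arrays, and the median spot signal was 188.5 and 245.5 units in FVB glands, 508 to 671.5 in the other glands and 125 to 170 in tumors. All gland arrays lay on 1 slide, with the FVB arrays in a slide column of their own, and the tumor arrays lay on another. Of the marker lists for cell types, all 7 epithelial miRNAs and all 5 fibroblast and smooth muscle miRNAs passed this on each of the 8 gland arrays. So did all 4 skeletal muscle, all 3 red blood cell and all 4 white blood cell miRNAs, and 3 of the 4 neuronal ones.

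In glands 18 of the 44 members were well above background on all 8 arrays, 20 on some of them and 6 on none. The share above background on all 8 arrays was 40.9%, against 64.1% of the 290 other miRNAs. The 18 comprised 2 of the 5 members on the Meg3 side (miR-337 and miR-665), 2 of the 5 in the group antisense to Rtl1 (miR-127 and miR-434-5p), neither of the 2 in Rian, and 14 of the 32 that begin with miR-379 and run to miR-410. The Meg3 side here means miR-770-3p, miR-673, miR-337, miR-540 and miR-665. All of these but miR-770-3p also lay within the annotated span of Rtl1. The group antisense to Rtl1 means miR-431, miR-433-5p, miR-127, miR-434-5p and miR-136. The 6 that were above background on no array, glands and tumors alike, were miR-323, miR-380-5p, miR-412, miR-433-5p, miR-673 and miR-758. Their gland signals were 14.8 to 31.15 units.

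**Figure D1:**
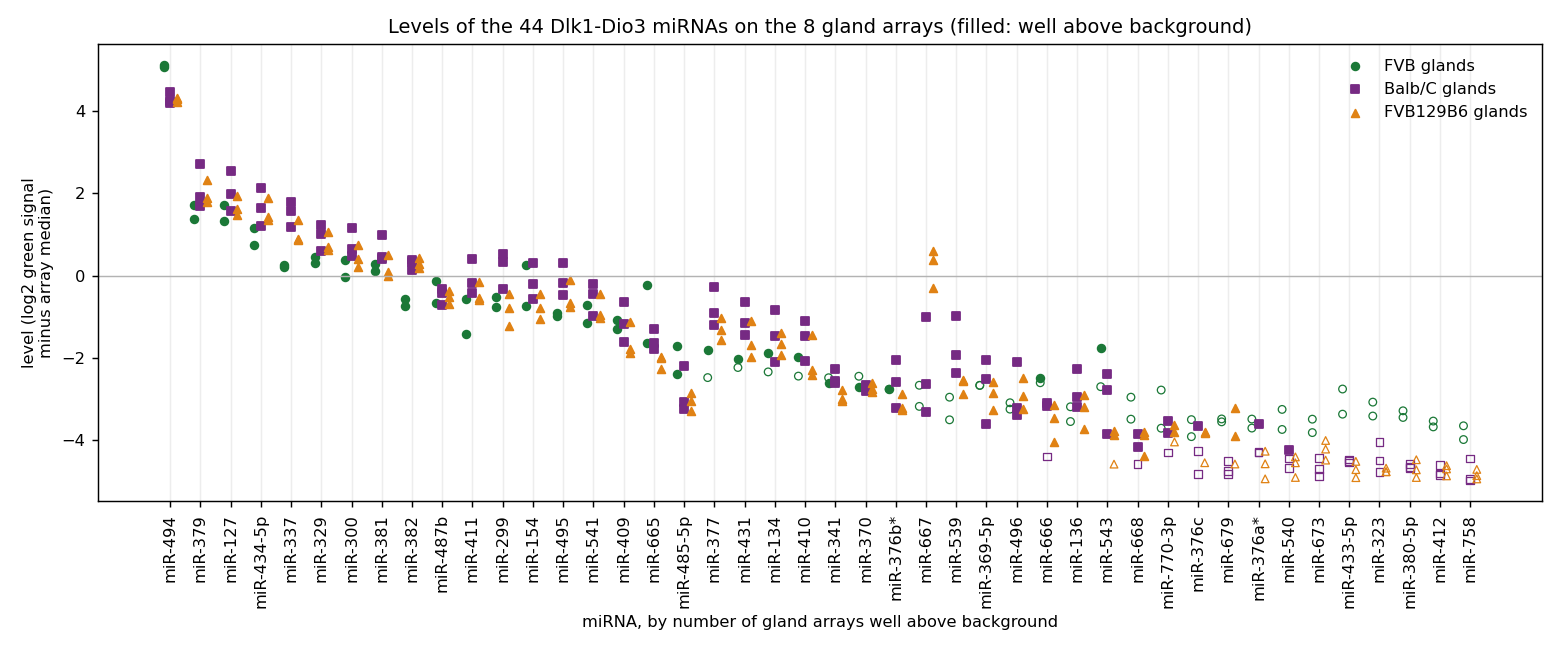
Levels of all 44 Dlk1-Dio3 miRNAs (log2 green signal minus array median) on the 8 gland arrays, with 1 symbol per array, colored by strain and filled where the miRNA was well above background. The 18 miRNAs at the left are filled on all 8 arrays, and the 6 at the right are open on all of them.

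Fewer members were detected in FVB glands than in the others. On the 3 Balb/C arrays 33 to 35 members were well above background, on the 3 FVB129B6 arrays 34 or 35, and on the 2 FVB arrays 27 and 18. On every array of the strain this held for 31 members (70.5%) in Balb/C, 32 (72.7%) in FVB129B6 and 18 (40.9%) in FVB glands. Among the other 290 miRNAs the shares were 70%, 74.1% and 64.5%. On no FVB array were 17 members above background, against 7 in Balb/C and 8 in FVB129B6 glands. The FVB arrays also had the lowest signal of the gland arrays, and the part of signal in these counts was not tested.

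**Figure D2:**
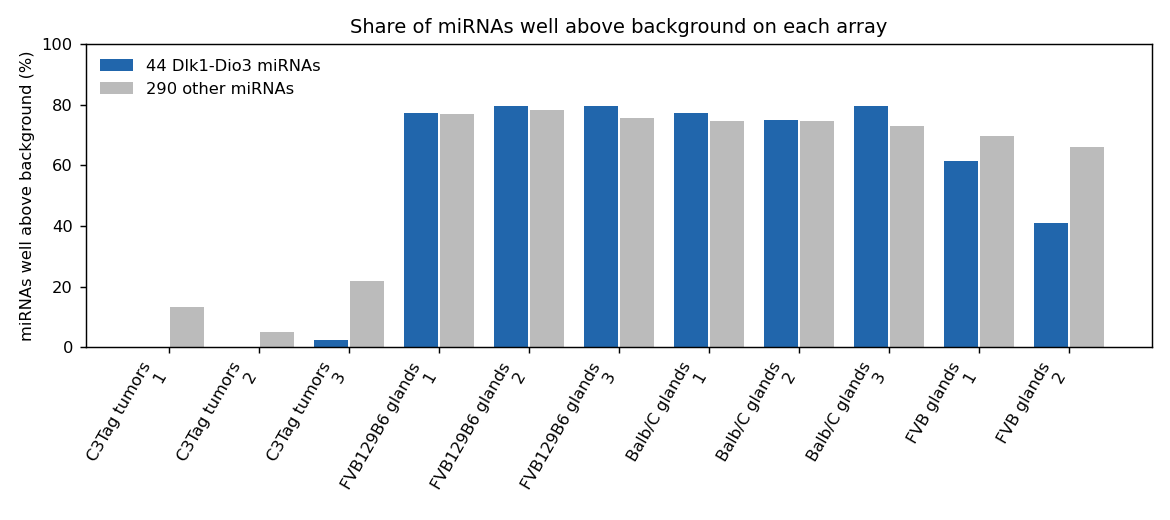
Share of miRNAs well above background (%) on each of the 11 arrays, for the 44 Dlk1-Dio3 miRNAs and the 290 other miRNAs. The 2 shares lie close together on Balb/C and FVB129B6 arrays, where 75% to 79.5% of the 44 were above background, and the Dlk1-Dio3 share is the lower one on the FVB and the tumor arrays.

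miR-494 was at 4.23, 4.34 and 4.31 in FVB129B6 glands, 4.47, 4.20 and 4.25 in Balb/C glands and 5.09 and 5.14 in FVB glands. In signal this was 10000, 13650 and 10650 units in FVB129B6 glands, 12900, 9240 and 10600 in Balb/C glands and 8380 and 6485 in FVB glands. The FVB values were the higher ones as levels and the lower ones as signals, so that the order of the strains rests on the scaling.

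miR-379, the first member of the large block, was at 1.90, 1.78 and 2.34 in FVB129B6 glands, 1.70, 1.91 and 2.71 in Balb/C glands and 1.38 and 1.73 in FVB glands. miR-127, which is encoded antisense to Rtl1 and directs cleavage of its mRNA, was at 1.48, 1.62 and 1.93 in FVB129B6 glands, 1.58, 1.99 and 2.54 in Balb/C glands and 1.32 and 1.73 in FVB glands. The strains overlapped in miR-127, and in miR-379 FVB and Balb/C glands overlapped, and for both replicate 3 was the highest array in FVB129B6 and in Balb/C glands. The F-test over strains called neither (limma, adjusted p = 0.351 and 0.328). miR-434-5p, the other member of the group antisense to Rtl1 above background on every gland array, was at 1.42, 1.36 and 1.90 in FVB129B6 glands, 1.20, 1.64 and 2.13 in Balb/C glands and 0.75 and 1.15 in FVB glands. Its adjusted p was 0.175, although both FVB arrays lay below the 6 others.

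On the Meg3 side, miR-337 was at 0.90, 0.85 and 1.35 in FVB129B6 glands, 1.18, 1.58 and 1.79 in Balb/C glands and 0.25 and 0.21 in FVB glands. The FVB arrays lay below all the others, with no overlap. miR-665 was at -2.27, -2.01 and -1.99 in FVB129B6 glands, -1.65, -1.79 and -1.30 in Balb/C glands and -1.64 and -0.23 in FVB glands, and its 2 FVB arrays differed by more than the other strains' arrays did among themselves.

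In the large block, miR-329 was at 0.70, 0.63 and 1.07 in FVB129B6 glands, 0.60, 1.01 and 1.24 in Balb/C glands and 0.30 and 0.45 in FVB glands. miR-300 was at 0.41, 0.21 and 0.75 in FVB129B6 glands, 0.48, 0.65 and 1.15 in Balb/C glands and 0.37 and -0.04 in FVB glands. miR-381, whose probe is close to that of miR-300, was at 0.08, -0.01 and 0.51 in FVB129B6 glands, 0.45, 0.40 and 0.98 in Balb/C glands and 0.10 and 0.27 in FVB glands. In all 3 the highest array was Balb/C replicate 3. miR-382 was at 0.43, 0.19 and 0.28 in FVB129B6 glands, 0.32, 0.14 and 0.37 in Balb/C glands and -0.73 and -0.58 in FVB glands, with both FVB arrays below the 6 others.

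Levels of miR-487b were -0.53, -0.70 and -0.37 in FVB129B6 glands, -0.43, -0.33 and -0.71 in Balb/C glands and -0.14 and -0.66 in FVB glands. Those of miR-411 were -0.54, -0.61 and -0.16 in FVB129B6 glands, -0.43, -0.18 and 0.40 in Balb/C glands and -0.58 and -1.44 in FVB glands. Those of miR-299 were -1.23, -0.79 and -0.46 in FVB129B6 glands, -0.32, 0.34 and 0.54 in Balb/C glands and -0.77 and -0.52 in FVB glands. Strains overlapped in miR-487b and miR-411, while for miR-299 all Balb/C arrays were above all FVB129B6 and FVB arrays. Levels of miR-154 were -1.06, -0.78 and -0.45 in FVB129B6 glands, -0.56, -0.21 and 0.30 in Balb/C glands and -0.75 and 0.25 in FVB glands. Those of miR-495 were -0.68, -0.78 and -0.10 in FVB129B6 glands, -0.46, -0.19 and 0.32 in Balb/C glands and -0.90 and -0.99 in FVB glands, and both FVB arrays lay below the others. In miR-154 the strains overlapped.

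The 4 remaining members that were above background on every gland array were fainter relative to the array's median. miR-541 was at -0.96, -1.03 and -0.44 in FVB129B6 glands, -0.98, -0.44 and -0.21 in Balb/C glands and -1.16 and -0.71 in FVB glands. miR-409 was at -1.79, -1.90 and -1.13 in FVB129B6 glands, -1.62, -1.19 and -0.65 in Balb/C glands and -1.09 and -1.29 in FVB glands. miR-485-5p was at -3.07, -3.30 and -2.86 in FVB129B6 glands, -3.08, -3.25 and -2.21 in Balb/C glands and -2.39 and -1.72 in FVB glands. Strains overlapped in miR-541 and miR-409, and in miR-485-5p both FVB arrays lay above all others but Balb/C replicate 3, which lay between them. With miR-665 these complete the 18.

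Within a strain most of these miRNAs were highest on the same array. Of the 18 members, 16 were highest on Balb/C replicate 3 among the Balb/C arrays, against 42.5% of the 186 other miRNAs above background on all gland arrays. The exceptions were miR-494 and miR-487b. On FVB129B6 replicate 3 again 16 of 18 were highest within their strain, with miR-494 and miR-382 as exceptions, but so were 77.4% of the other 186. The median deviation from the strain's mean was 0.38 on Balb/C replicate 3 for the 18 members and 0.01 for the others, and on FVB129B6 replicate 3 it was 0.30 and 0.14. In FVB glands replicate 2 was the higher array for 12 of 18 members and for 61.3% of the others. The members share a locus and an array, so they are not independent, and no test is given.

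The lists for other cell types stood as follows on those arrays. The log2 summed level of the 5 fibroblast and smooth muscle miRNAs was 9.43, 9.24 and 9.66 on Balb/C replicates 1, 2 and 3, and 9.36, 9.31 and 9.55 on the FVB129B6 replicates. That of the 4 skeletal muscle miRNAs was 10.03, 10.01 and 9.24 in Balb/C glands, and 8.52, 8.67 and 8.69 in FVB129B6 glands. That of the 7 epithelial miRNAs was 8.61, 8.06 and 8.94 in Balb/C glands and 9.14, 8.90 and 9.27 in FVB129B6 glands. In Balb/C glands the fibroblast and epithelial lists were thus both highest on replicate 3. The muscle, red blood cell and neuronal lists were lowest there, and the white blood cell list was highest on replicate 2. In FVB129B6 glands all of these lists were highest on replicate 3. Their part in the shared pattern was not tested, and in tissue RNA a change in the number of cells of a type and a change in RNA per cell cannot be told apart.

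**Figure D3:**
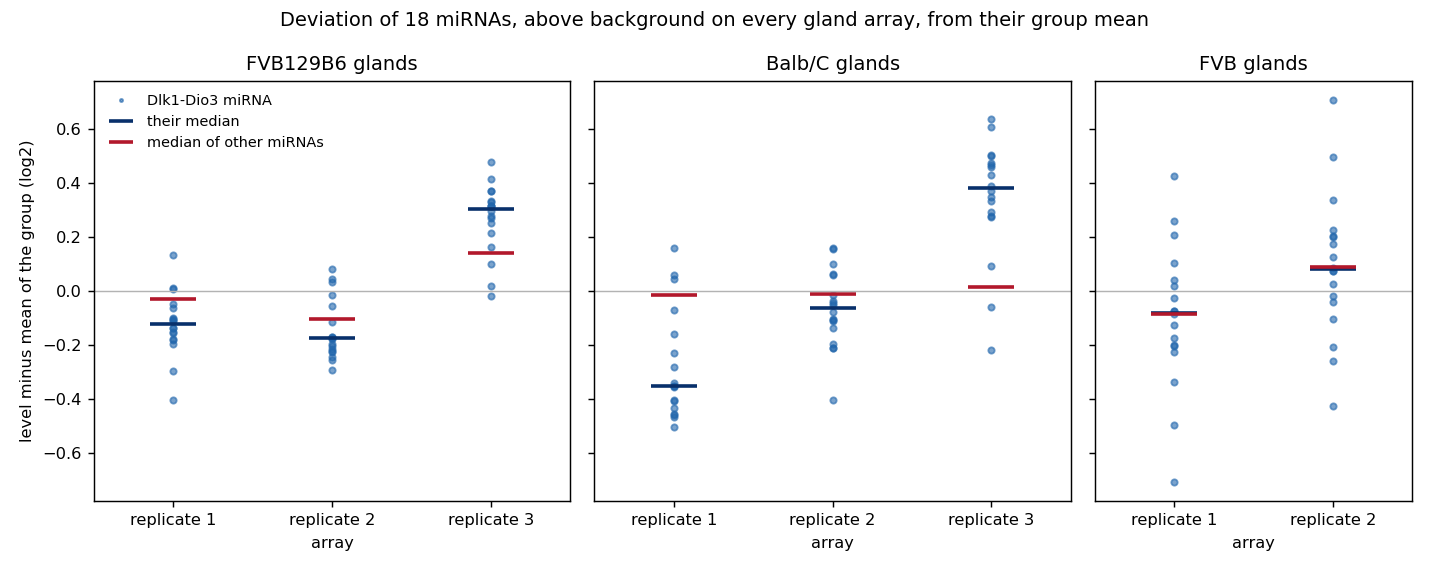
Deviation of each of the 18 miRNAs above background on every gland array from the mean of its strain (log2), by array, with the median of the 18 and the median of the 186 other such miRNAs as bars. In Balb/C replicate 3 the median of the 18 is 0.38 and that of the others 0.01.

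The comparison of strains asked whether these miRNAs differ between normal glands of the 3 strains. Both FVB arrays lay in a slide column that held no other strain. Strain and slide column therefore cannot be told apart in the contrasts with FVB, and no alternative took slide column into account. limma's F-test over the 3 strains, with Benjamini-Hochberg adjustment over all 261 miRNAs tested, called 8 of the 35 members tested: miR-299, miR-337, miR-377, miR-382, miR-494, miR-539, miR-543 and miR-667. Over all miRNAs 46% were called, so the members' share of 22.9% was below that of the array. A miRNA entered the test when 3 or more of the 8 arrays had it above background, and 9 members did not enter. Of the 35 that did, 8 were above background on no FVB array, so that they entered only through the other strains, and counts and medians over the 35 are descriptions. Of the 8 calls, that of miR-337 (adjusted p = 0.0113) held under every alternative run and with each array left out, and that of miR-382 (adjusted p = 0.00626) was lost in the fit over all 11 arrays alone, with an adjusted p of 0.130. miR-667 (adjusted p = 0.00966) and miR-539 were among the 8 members that entered through the other strains, and with the filter on every array neither entered. The count fell to 4 without FVB129B6 replicate 1 or replicate 2, and to 5 without FVB replicate 2.

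Between FVB129B6 and FVB glands 6 members differed. miR-667, miR-382 and miR-337 were higher and miR-494, miR-543 and miR-665 lower in FVB129B6 glands. Over all miRNAs tested 8.05% were called higher and 31.4% lower. The median log2 difference over the 35 members tested was 0.09, against -0.39 over all 261 miRNAs, and 19 of the 35 were above 0, against 29.5% of all.

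miR-667 had the largest difference of the 35 members. Its levels were 0.38, 0.59 and -0.30 in FVB129B6 glands, -1.01, -3.34 and -2.64 in Balb/C glands and -3.19 and -2.68 in FVB glands. All 3 FVB129B6 arrays were above all others, Balb/C replicate 1 lay between them and the rest, and neither FVB array was well above background. FVB129B6 replicates 1 and 2 lay in slide column 1, and FVB129B6 replicate 3 and Balb/C replicate 1 in column 2. Balb/C replicates 2 and 3 lay in column 3 and the FVB arrays in column 4. miR-346, not a member, was at 0.50, 0.27 and -0.72 in FVB129B6 glands and -1.59, -3.03 and -3.73 in Balb/C glands. In FVB glands it was at -3.25 and -3.03. The part of slide column was not tested. In signal the values were 686.5, 1002 and 438 units in FVB129B6 glands, 286, 64.65 and 99.15 in Balb/C glands and 21.55 and 29.55 in FVB glands. The FVB129B6 glands were therefore at least 7.78-fold higher than FVB glands (limma, adjusted p = 0.00634), where each FVB array was set to the lowest level of a miRNA above background on it. miR-667 entered the test through the other strains alone. With no filter the adjusted p was 0.0038, and with the floor used in the fit itself it was 0.00704. Over 7 ways of scaling the smallest bound was 1.62-fold, with normexp background correction.

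For miR-382 the log2 difference was 0.96 ± 0.16 (SE; limma, adjusted p = 0.0038), and its adjusted p was 0.0861 in the fit over all 11 arrays. For miR-337 it was 0.80 ± 0.24 (SE, adjusted p = 0.031), which did not pass without FVB129B6 replicate 1 or 3 or without either FVB replicate, with adjusted p of 0.0599, 0.0720, 0.0730 and 0.104. miR-494 was lower by this scaling, with a log2 difference of -0.82 ± 0.16 (SE, adjusted p = 0.00567). With no scaling its difference was 0.59 and with the ratio of green to red 0.16, both of the opposite sign.

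miR-543 was at -4.60, -3.79 and -3.89 in FVB129B6 glands, -3.86, -2.40 and -2.78 in Balb/C glands and -1.77 and -2.71 in FVB glands. It was not well above background on FVB129B6 replicate 1 or FVB replicate 2. Its log2 difference of -1.85 ± 0.49 (SE, adjusted p = 0.0195) had an adjusted p of 0.0598 without FVB129B6 replicate 1 and 0.0998 without FVB replicate 1. The call was also lost with scaling on miRNAs above background on all arrays, no scaling and the ratio of green to red, with adjusted p of 0.100 to 0.486. For miR-665 the difference was -1.16 ± 0.39 (SE, adjusted p = 0.0468). It was -0.45 without FVB replicate 2, with an adjusted p of 0.231. The call was also lost without each of the 3 FVB129B6 and the 3 Balb/C arrays, with adjusted p of 0.0540 to 0.123, and with the 75th percentile, scaling on miRNAs above background, no scaling and the ratio of green to red, with adjusted p of 0.131 to 0.533. Without FVB129B6 replicate 1 only 3 of the 6 calls were made.

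Between Balb/C and FVB glands 7 members differed, 5 higher (miR-337, miR-377, miR-382, miR-431 and miR-539) and 2 lower (miR-494 and miR-668) in Balb/C. Over all miRNAs tested 5.75% were called higher and 32.2% lower. The median difference over the 35 members was 0.42 and over all 261 miRNAs -0.48, and 24 of the 35 were above 0, against 28.4% of all. The FVB arrays are shared with the comparison above. Normexp turned the sign of the members' median, to -0.11. In the FVB129B6 comparison it was -0.32 with normexp, -0.20 with no filter, -0.059 with a floor, -0.12 with the replicate number as a block, -0.11 without FVB129B6 replicate 3 and -0.08 without FVB replicate 1.

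miR-337 had a log2 difference of 1.29 ± 0.24 (SE; limma, adjusted p = 0.00787), and the call held under every alternative and with each array left out. For miR-382 the difference was 0.94 ± 0.16 (SE, adjusted p = 0.00617), with an adjusted p of 0.102 in the fit over all 11 arrays. The levels of both are given above, and no Balb/C array overlapped the FVB arrays in either.

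miR-377 was at -1.34, -1.56 and -1.03 in FVB129B6 glands, -1.20, -0.90 and -0.27 in Balb/C glands and -1.81 and -2.49 in FVB glands. It was not well above background on FVB replicate 2. All Balb/C arrays were above both FVB arrays, by 1.36 ± 0.33 on the log2 scale (SE, adjusted p = 0.0165). Without FVB replicate 2 the adjusted p was 0.0921, and with normexp the difference was 0.06.

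miR-431, an antisense member described as acting on Pax7 in muscle, was at -1.70, -1.98 and -1.11 in FVB129B6 glands, -1.44, -1.15 and -0.64 in Balb/C glands and -2.03 and -2.24 in FVB glands. It was not well above background on FVB replicate 2. Its Balb/C arrays lay above the FVB arrays, by 1.06 ± 0.32 on the log2 scale (SE, adjusted p = 0.034). The call was lost without Balb/C replicate 2 or 3, either FVB replicate or FVB129B6 replicate 1, with adjusted p of 0.0584, 0.0750, 0.0664, 0.136 and 0.0564. It was also lost with the Balb/C arrays of like titles averaged (adjusted p = 0.0577) and in the fit over all 11 arrays (adjusted p = 0.131), and normexp turned the difference to -0.08.

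miR-539 was at -2.55, -2.88 and -2.57 in FVB129B6 glands, -2.38, -0.99 and -1.94 in Balb/C glands and -3.52 and -2.97 in FVB glands. Neither FVB array was well above background, so that it entered the test through the other strains alone. Balb/C glands were at least 2.08-fold higher by the bound used for miR-667 (limma, adjusted p = 0.0228), but with that floor used in the fit itself the call was lost, with an adjusted p of 0.0520. No bound above 1 was obtained with normexp, where the difference was -0.09. Without FVB replicate 1 the adjusted p was 0.101, and with outlier spots kept it was 0.196.

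miR-494 had a log2 difference of -0.81 ± 0.16 (SE, adjusted p = 0.00798), of 0.54 with no scaling and of 0.04 with normexp. miR-668 was at -3.81, -4.41 and -3.90 in FVB129B6 glands, -4.59, -4.19 and -3.88 in Balb/C glands and -3.50 and -2.97 in FVB glands. It was called lower in Balb/C (adjusted p = 0.0335), but neither FVB array was well above background, while Balb/C replicates 2 and 3 were. In signal the values were 31.95, 31.65 and 41.05 units in FVB129B6 glands, 24.6, 32.1 and 36.85 in Balb/C glands and 17.7 and 21 in FVB glands, so that no fold is given. With no scaling its log2 difference was 0.37, and the call was lost without FVB129B6 replicate 1 or 3, Balb/C replicate 1 or 2 or FVB replicate 2, with adjusted p of 0.0507, 0.0507, 0.0864, 0.0615 and 0.175. It was also lost with the 75th percentile, scaling on miRNAs above background, quantile normalization and the ratio of green to red. Spot medians, slide row as a block and the intensity trend lost it too. Without FVB replicate 2 the comparison called 4 members in place of 7.

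**Figure D4:**
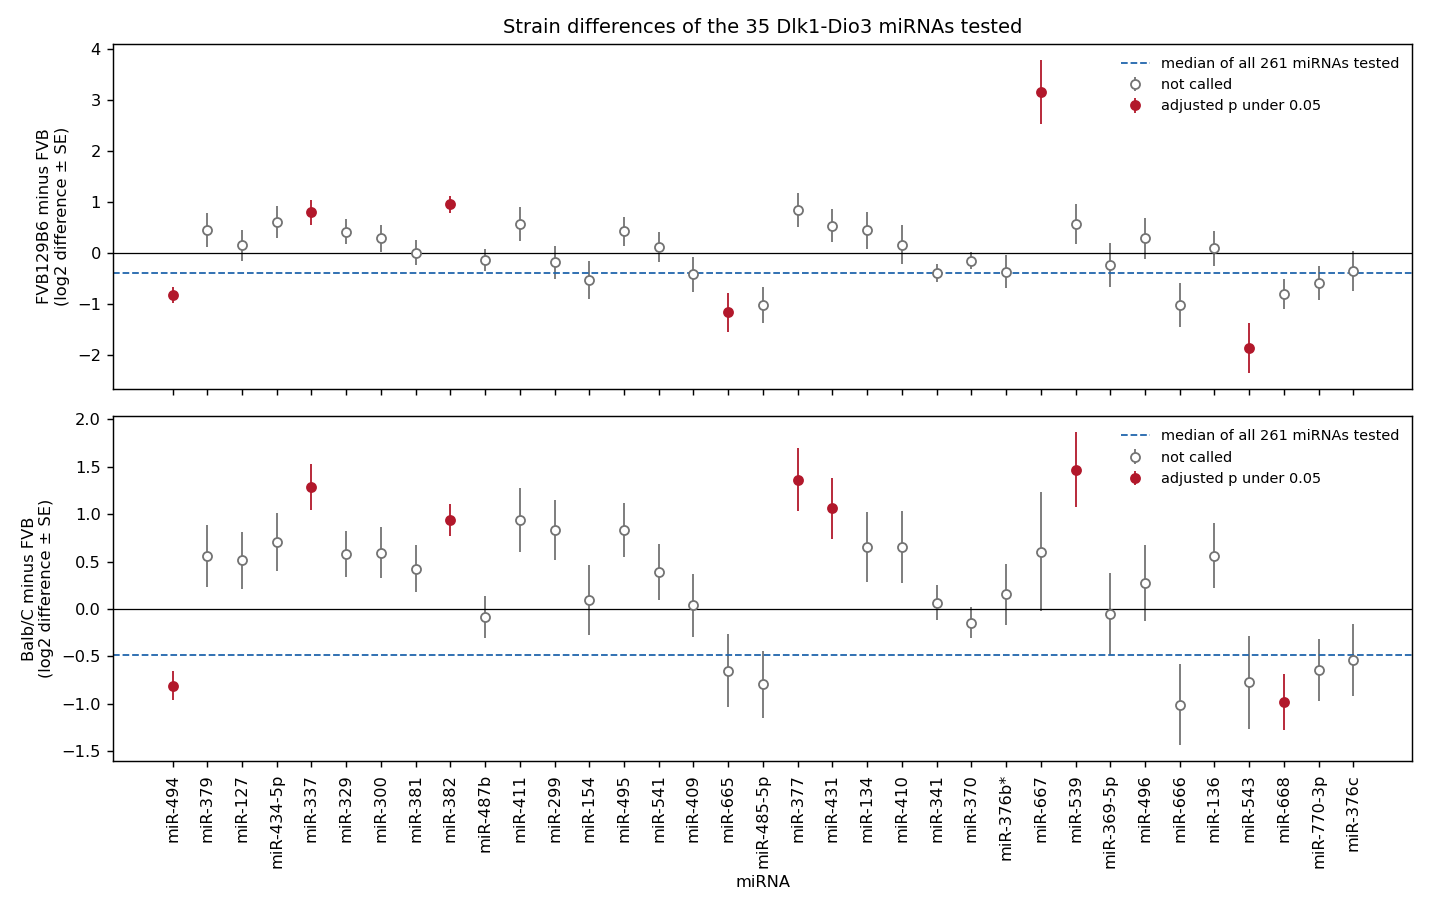
Log2 differences (± SE) of the 35 Dlk1-Dio3 miRNAs tested, FVB129B6 minus FVB glands above and Balb/C minus FVB glands below, filled where the adjusted p was under the threshold of 0.05. The dashed line is the median of all 261 miRNAs tested, -0.39 above and -0.48 below. Above 0 lie 19 of the 35 points in the upper panel and 24 in the lower.

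Between Balb/C and FVB129B6 glands limma called none of the 35 members, while 3.45% of all miRNAs were called. At an unadjusted p under 0.05 there were 5: miR-299, miR-341, miR-539, miR-543 and miR-667. The share of all miRNAs at that unadjusted threshold was not computed, so these 5 cannot be read as an excess. The 3.45% is for adjusted calls. The median difference of the members was 0.30 and that of all miRNAs 0.03. Without Balb/C replicate 1 miR-299 and miR-667 were called. With the replicate number as a block miR-299 was called, and with slide row as a block miR-667.

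For miR-299, which the F-test called (adjusted p = 0.0453), the difference between Balb/C and FVB129B6 glands was 1.01 ± 0.28 (SE, adjusted p = 0.0916). The F-test call was lost without any 1 of 6 arrays, namely FVB129B6 replicate 1 or 2, Balb/C replicate 2 or 3 and either FVB replicate, with adjusted p of 0.0651 to 0.128. With the Balb/C arrays of like titles averaged the adjusted p was 0.109, and with normexp, slide row as a block and all 11 arrays in the fit it was 0.0579 to 0.0737. The calls of miR-377, miR-539 and miR-543 by the F-test (adjusted p = 0.0344, 0.0416 and 0.04) were also lost without single arrays. For miR-377 these were FVB129B6 replicates 1 and 2, Balb/C replicate 2 and FVB replicate 2, with adjusted p of 0.0556 to 0.134, and the call was lost with spot medians (0.0535) and normexp (0.257). For miR-539 they were all but Balb/C replicates 1 and 2, with adjusted p of 0.0591 to 0.0991, and the call was lost with normexp, the floor, outlier spots kept and the replicate block, at 0.0620 to 0.264. For miR-543 they were each FVB129B6 replicate, Balb/C replicate 3 and FVB replicate 1, with adjusted p of 0.0581 to 0.116, and the call was lost with spot medians, the replicate block and 5 other ways of scaling, at 0.0540 to 0.238. That of miR-494 (adjusted p = 0.00848) held with each array left out but was lost under 6 other ways of processing the signal, with adjusted p of 0.107 to 0.407.

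The skeletal muscle list differed along with the strains. Its log2 summed level was 3.71 and 6.10 in FVB glands against 8.52 to 10.03 in the other glands, and all 4 of its miRNAs were called by the F-test. All 3 red blood cell miRNAs were called as well, with a log2 sum of 9.53 and 9.61 in FVB, 7.67 to 8.72 in Balb/C and 6.83 to 7.39 in FVB129B6 glands. None of the 5 fibroblast and smooth muscle miRNAs and none of the 4 white blood cell miRNAs was called, and 1 of the 7 epithelial ones. Over all 261 miRNAs tested 46% were called, and the lists are too short to be set against that share. The log2 sum of the 4 white blood cell miRNAs was 8.40 on Balb/C replicate 2 and 5.27 to 6.16 on the other gland arrays. Among the 4 neuronal miRNAs 3 were above background on all glands, 2 were called, and the log2 sum was 2.51 to 3.37. Their part in the members' strain differences was not tested.

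The remaining 14 members above background on some gland arrays but not named above reached it on 7 arrays (miR-134, miR-341, miR-370, miR-376b* and miR-410), on 6 (miR-136, miR-369-5p, miR-496 and miR-666), on 4 (miR-770-3p), on 3 (miR-376c) or on fewer. miR-134, known for its role in dendritic spines, was above background on every FVB129B6 and Balb/C array, as were miR-341 and miR-370, the members within Rian. miR-679 reached it on 2 FVB129B6 arrays. miR-376a* and miR-540 each reached it on 1 Balb/C array. The 11 of these that were tested were not called between strains.

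The comparison of tumors with glands asked how normal tissue and tumor differ. In C3(1)/Tag tumors 1 of the 44 members, miR-431, was well above background, and on tumor replicate 3 alone. None of the 18 members that were above background on every gland array was so on any tumor array. Of the 186 other miRNAs above background on every gland array, 62 were above it on at least 1 tumor array. The lowest level called above background was 2.02, 2.13 and 1.23 on the tumor arrays. Of the 18, only miR-494 had a median gland level above all of these (4.32). Those of miR-379, miR-127 and miR-434-5p (1.84, 1.67 and 1.39) exceeded the last alone. The rest of the 18 lay below all of them, so that unchanged levels could have gone undetected. A level above the lowest one detected did not assure detection either. On tumor replicate 3 miR-382 was at 1.44 and was not well above background. The tumor signals of the 43 members other than miR-431 were 102.2 to 343.5 units, around the tumor arrays' median signals of 125 to 170.

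Before any scaling, 8 members had a lower signal on all 3 tumor arrays than on all 8 gland arrays, which is 18.2% of the 44, against 45.2% of all 334 miRNAs. They were miR-494, miR-379, miR-127, miR-434-5p, miR-337, miR-329, miR-300 and miR-381. The opposite held for 19 members, 43.2% against 30.5% of all miRNAs, and none of the 19 was well above background on any tumor array. These included miR-323 and miR-412, which were not above background on any array of either kind. The signals of miR-412 were 127.5 to 178.5 units in tumors and 15.85 to 22.7 in glands, and those of miR-323 were 198.5, 135.5 and 116 in tumors and 18.55 to 25.45 in glands. Both undetected miRNAs thus had a higher signal on the tumor slide.

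miR-494 had 138, 134 and 102.2 units on the tumor arrays and 6485 to 13650 on the gland arrays, with no overlap. Its levels in tumors were -0.25, -0.06 and -0.31. Glands were at least 6.85-fold higher than tumors by the bound described above (limma, adjusted p = 2.58e-10). Like every member but miR-431 it entered this test through the glands alone. With no filter the adjusted p was 1.34e-10, and with the floor used in the fit itself it was 1.26e-08. Against FVB glands alone, the strain of the tumors, the bound was 9.98-fold, and 6 of the 7 ways of scaling gave one above 1, the smallest 1.06-fold. Of 7 ways of scaling, 5 gave a bound above 1 against all glands, and the smallest of these was 1.18-fold.

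miR-379 had 114.5 to 177.5 units in tumors and 617.5 to 3720 in glands. It was called lower in tumors (limma, adjusted p = 1.17e-05), but with the floor used in the fit itself the call was lost (adjusted p = 0.756), as it was with the ratio of green to red (adjusted p = 0.446). Its bound was 1.07-fold, and 4 of 7 ways of scaling gave one above 1. Against FVB glands alone there was none at the main scaling. With scaling to the 75th percentile the fitted log2 difference was of the opposite sign, 1.04. miR-127 had 151, 204.5 and 267 units in tumors and 614 to 3260 in glands. miR-434-5p had 162.5, 139.5 and 118.5 in tumors and 416 to 2485 in glands, and miR-337 154.5, 138 and 135.5 in tumors and 223.5 to 1925 in glands. In none of these last 3 did the bound exceed 1 at the main scaling, so no fold is given. In signal before scaling, no tumor array overlapped a gland array in any of the 5. As levels this did not hold for miR-337. Its tumor replicate 3 (0.243) lay between FVB replicates 1 and 2 (0.248 and 0.214).

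miR-431 was the exception in the tumors, with 409, 135 and 579.5 units. In glands it had 159.5, 168.5 and 255 units in FVB129B6 glands, 216.5, 242.5 and 356 in Balb/C glands and 63.85 and 31.15 in FVB glands. Tumor replicates 1 and 3 were above all gland arrays, and replicate 2 lay between the FVB arrays and the other glands. Of the tumor arrays only replicate 3 was well above background. The other members, none of them detected in tumors, reached 343.5 units there, so this order of signals need not be an order of miR-431 itself.

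**Figure D5:**
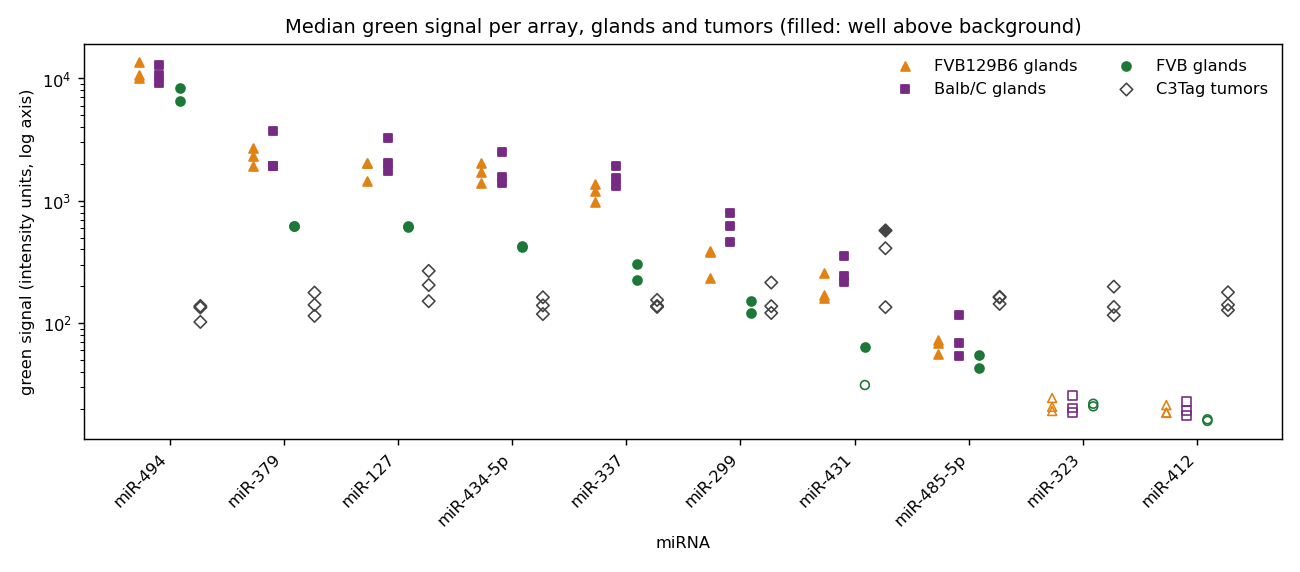
Median green signal (intensity units, log axis) of 10 Dlk1-Dio3 miRNAs on each array, colored by group and filled where well above background. The tumor signals of miR-494 lie at 102.2 to 138 units, below the gland signals of 6485 to 13650, while miR-323 and miR-412 are open on all 11 arrays and higher on the tumor arrays.

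limma, in a fit over the 4 groups, called 8 members lower and 25 higher in tumors out of the 35 tested, against 52.5% lower and 37.9% higher over all 261 miRNAs. The 8 called lower were those with lower signals throughout. Of the 25 called higher, 24 were not above background on any tumor array and miR-431 on 1. Such calls among members above background on every gland array were miR-485-5p, miR-665, miR-409, miR-541, miR-299, miR-487b, miR-411 and miR-154. Of these, miR-485-5p had 162, 143.5 and 164 units in tumors and 42.65 to 117 in glands. No fold is given for any of them. The median log2 difference of the members was 1.49, and it was 0.29 with quantile normalization, -0.01 with no scaling and 4.47 with the 75th percentile, so that its size and sign rested on the scaling. Tissue, slide and software version cannot be told apart here.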

How the data were processed

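Deposited values were green and red spot intensities of Agilent custom arrays, extracted with Feature Extraction 9.5.1.1 (tumors) and 10.5.1.1 (glands), and a log2 table of 1336 spots. Per the file headers and values the authors' intensities were background subtracted and dye normalized, and the deposited log2 values equal the log2 green intensity after 1 constant per array. The labels name only Hy3, the green dye.

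Levels are log2 green intensity minus the array's median over the 1336 spots, averaged over a miRNA's spots without outlier spots. miRNAs well above background on at least 3 arrays of a fit were tested with limma 3.58.1 in R 4.3.3 (eBayes, Benjamini-Hochberg adjustment over all 261 tested, threshold 0.05): an F-test and contrasts over the 3 strains on 8 gland arrays, and tumors against the mean of the 3 strain means on 11 arrays. For a lower bound on a fold, a miRNA's level on an array of the undetected group was raised, where lower, to the smallest level measured above background there. Probe sequences and RefSeq mature miRNAs were joined by base complementarity. Figures used Python 3.11.15, pandas 2.3.3 and matplotlib 3.10.9.

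Members named with values per array were up to 15 called by the F-test, those above background on all 8 glands, up to 5 in each direction called between tumors and glands and detected throughout 1 side, and miR-127, miR-323, miR-412 and miR-494, and further members called in a single contrast were added after their values were seen. The members, the marker lists and these rules were chosen with earlier results of these data known. The fits were tested on simulated data. Alternatives were other scalings, normexp with an offset of 50, the deposited table, other filters, a floor, outlier spots kept, spot medians, the ratio of green to red, each array left out, blocks for replicate number and slide row, like-titled Balb/C arrays averaged, a strain fit on 11 arrays, FVB glands as the only reference and an intensity trend. Precision is limited by how few arrays there are.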

Additional observations from a re-analysis of the deposited data

Results flagged for a closer look

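In the red channel, which the labels do not name for any sample and which no comparison above uses except as a ratio, 41 of the 44 members (93.2%) passed the background call on each of the 8 gland arrays, against 82.1% of the 290 other miRNAs. In the green channel this held for 18 members. On the tumor arrays 1 member was above background in red, on at least 1 array. What RNA the red channel held on the gland arrays is not given in the sources used here.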

How the results depend on the processing

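The count of members called by the F-test, 8, became 15 with scaling on miRNAs above background on all arrays and with the ratio of green to red, 27 with no normalization, 17 with normexp, 18 of 44 with no filter and 4 of 18 with a filter on every array, and lay between 4 and 8 with each array left out. Between FVB129B6 and FVB glands the 6 calls became 10 with scaling on miRNAs above background, all of them higher, 29 with no normalization, 19 with normexp, 16 with no filter and 10 with a floor, and 3 to 8 with an array left out. The members' median there, 0.09, was 0.46 at the 75th percentile, 0.62 with scaling on miRNAs above background, 1.51 with no normalization, -0.32 with normexp, -0.20 with no filter and 0.66 with green over red. Between Balb/C and FVB glands the 7 calls became 12 at the 75th percentile, 17 with scaling on miRNAs above background and 18 with green over red, all of them higher, 27 with no normalization, 19 with normexp and 17 with no filter, and 4 to 9 with an array left out. The median there, 0.42, became 0.86, 0.87, 0.92, 1.78, -0.11 and 0.080 under the same settings. The members' median minus that of all miRNAs, which a scaling by 1 constant per array cannot move, was 0.48 in the FVB129B6 and 0.91 in the Balb/C comparison, 0.33 and 0.69 with quantile normalization, 0.65 and 0.94 with green over red, and -0.24 and -0.022 with normexp.

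Between Balb/C and FVB129B6 glands 1 member in place of 0 was called with spot medians, with slide row as a block and with all 11 arrays in the fit (miR-667 each time), and 0 to 2 with an array left out. For tumors the 33 calls became 16 with quantile normalization, and the median of 1.49 became 4.47 at the 75th percentile, 4.02 with scaling on miRNAs above background, 0.29 with quantile normalization, -0.012 with no normalization, 0.50 with normexp, 2.52 with no filter, 3.33 with a floor and 2.10 against FVB glands alone. With a filter on every array no member was left to test in tumors. Single differences that reversed were those of miR-494 (FVB129B6 against FVB: 0.59 with no normalization, 0.16 with green over red; Balb/C against FVB: 0.54 and, with normexp, 0.035), miR-665 (0.26 with no normalization), miR-668 (0.37 with no normalization), miR-431 and miR-539 (-0.080 and -0.087 with normexp), and miR-379 in tumors (1.04 at the 75th percentile and 0.60 with scaling on miRNAs above background). Beyond scaling itself the cause was not tested.

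The replicate numbers did not pair the arrays. After removal of group means, same-numbered arrays correlated at 0.044 on average over 15 pairs and others at -0.022 over 30. With a replicate block the F-test called 8 members, the contrasts 8, 10 and 1 (miR-299, between Balb/C and FVB129B6 glands), and the tumor contrast 33, and the median between FVB129B6 and FVB glands turned to -0.12.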
